A study of Homo sapiens with 8 samples.

Results

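Matrix metalloproteinases (MMPs) are zinc proteases that cut the proteins of the extracellular matrix, and tissue inhibitors of metalloproteinases (TIMPs) bind and block them. This account follows 10 of these genes among the 23228 genes listed for each RNA-seq library of BT-549 cells. They were taken by symbol: MMP1, MMP2, MMP3, MMP9, MMP10, MMP13, MMP14, TIMP1, TIMP2 and TIMP3. BT-549 is an established triple negative breast cancer (TNBC) cell line. All 8 libraries came from this line, treated for 24 h with vehicle (DMSO), with EC359 at 100 nM, with vorinostat (also called SAHA) at 10 µM, or with EC359 and vorinostat together at those doses, referred to here as the combination. EC359 is an inhibitor of the leukemia inhibitory factor receptor (LIFR), and vorinostat is a histone deacetylase inhibitor (HDACi). The study asked by which transcripts EC359 alters the response of TNBC cells to an HDACi. Each group held 2 libraries, and the study's methods describe its in vitro assays in general as run in biological replicates. The labels do not name separate cultures for these libraries, so every p-value given for other genes measures the spread between libraries, which may be technical.

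The genes were chosen from these same read counts, with their levels across the 4 groups already known. Their own differences are therefore described by values, log2 fold changes and standard errors (SE), with no test. Calling a gene in a comparison required, in edgeR's quasi-likelihood test, that its adjusted p lay under 0.01 and that it differed by more than 1 on the log2 scale. The calls serve the related genes described further on. For the 10 genes they are only counted, beside the share of all genes called, and nothing is read from these counts. The lists of related genes were also drawn up with earlier results of these data known. Their counts and p-values are therefore descriptions and not independent support. The interaction of the drugs, which is the EC359 difference in the presence of vorinostat minus that in its absence on the log2 scale, was called at an adjusted p under 0.01 alone.

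Most MMPs are secreted as inactive precursors and are cut to their active form outside the cell by plasmin or by other MMPs. MMP14 differs in that it is anchored in the plasma membrane, where it cuts collagen beside the cell and, with TIMP2 as a bridge, activates MMP2. The promoters of several secreted MMPs and of TIMP1 are textbook targets of AP-1, a dimer of FOS and JUN family proteins, and of ETS family factors. In breast tumors MMPs are made by stromal cells as well as by mesenchymal-like tumor cells such as BT-549. RNA levels say nothing about how much of each precursor was activated or inhibited.

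The libraries held 19069450 to 24759041 gene counts, and 13694 genes passed the filter on low counts. Levels are given as CPM, which are reads of a gene scaled to a common library size, after TMM scaling (the trimmed mean of M-values method). They are levels over whole cultures, so fewer cells with an mRNA and less of it per cell cannot be told apart. Of the 10 genes 8 passed this filter. MMP2 and TIMP3 did not pass it. Of the cell type markers, VIM (vimentin, mesenchymal) stood at 2056 to 9442 CPM, the estrogen receptor gene ESR1 at 0 to 20 counts, and the leukocyte gene PTPRC at 0 to 15 counts per library, with 0 in both combination libraries. CD68, a lysosomal gene used as a macrophage marker, stood at 47.4 and 39.8 CPM in vehicle, 202 and 120 CPM with EC359, 71.8 and 72.7 CPM with vorinostat, and 222 and 267 CPM with the combination. It was thus high in the groups in which MMP1 and MMP3 were high, and its part in their levels was not tested. ERBB2, the HER2 receptor gene, had means of 99.1, 78.2, 15.3 and 12.3 CPM in the same order. The endothelial genes PECAM1 and VWF had 0 to 12 counts per library. The sum of 4 epithelial markers (CDH1, EPCAM, KRT8, KRT18) was 2.55 and 2.94 CPM in vehicle, 5.69 and 7.2 CPM with EC359, 21.9 and 11.8 CPM with vorinostat, and 2.56 and 21.5 CPM with the combination. The combination libraries thus differed in these epithelial markers, and their values are given separately for the 8 genes fitted.

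Promoter sequence is shown for 3 genes whose levels followed different patterns. RefSeq promoters (GRCh38.p14) of MMP10, MMP14, TIMP1 and TIMP3 were used, and those of MMP1, MMP2, MMP3, MMP9, MMP13 and TIMP2 are not shown here. Each matched GRCh37 exactly at 1 place, and GRCh37 coordinates are given. The stretches run 5′ to 3′ on the gene's strand and start at position -120 from the RefSeq start site. They end at position -1 for MMP10 (chr11:102651360-102651479, minus strand), -26 for MMP14 (chr14:23305674-23305768, plus strand) and -29 for TIMP1 (chrX:47441715-47441806, plus strand), before the GENCODE gene start. Capitals mark the motifs searched.
MMP10: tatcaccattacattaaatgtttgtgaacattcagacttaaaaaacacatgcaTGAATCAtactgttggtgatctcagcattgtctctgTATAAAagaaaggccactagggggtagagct
MMP14: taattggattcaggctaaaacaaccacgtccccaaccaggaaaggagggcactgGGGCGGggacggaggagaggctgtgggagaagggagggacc
TIMP1: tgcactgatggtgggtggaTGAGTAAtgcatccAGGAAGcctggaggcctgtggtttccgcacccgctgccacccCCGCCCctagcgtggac

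Motifs were searched on both strands over positions -250 to -1 of the 4 promoters. The AP-1 letters TGAGTCA were in 0 of the 4 and in 4.2% of 35116 RefSeq promoters. The variants TGAGTAA or TGAATCA, which were picked after these sequences had been seen, were in MMP10 (67 bases upstream) and TIMP1 (101 bases upstream), and in 4.64% of all promoters. An ETS motif, AGGAAG or AGGATG, was in TIMP1 (87 bases upstream) and in 37.1% of all promoters. The TATA box letters TATAAA were in MMP10 (31 bases upstream) and in 10.7% of all promoters. The GC box GGGCGG, whose reverse complement is CCGCCC, was in MMP14, TIMP1 and TIMP3 and in 42.6% of all promoters. A match is a description of the letters in these windows and not evidence of a bound factor.

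**Figure D1:**
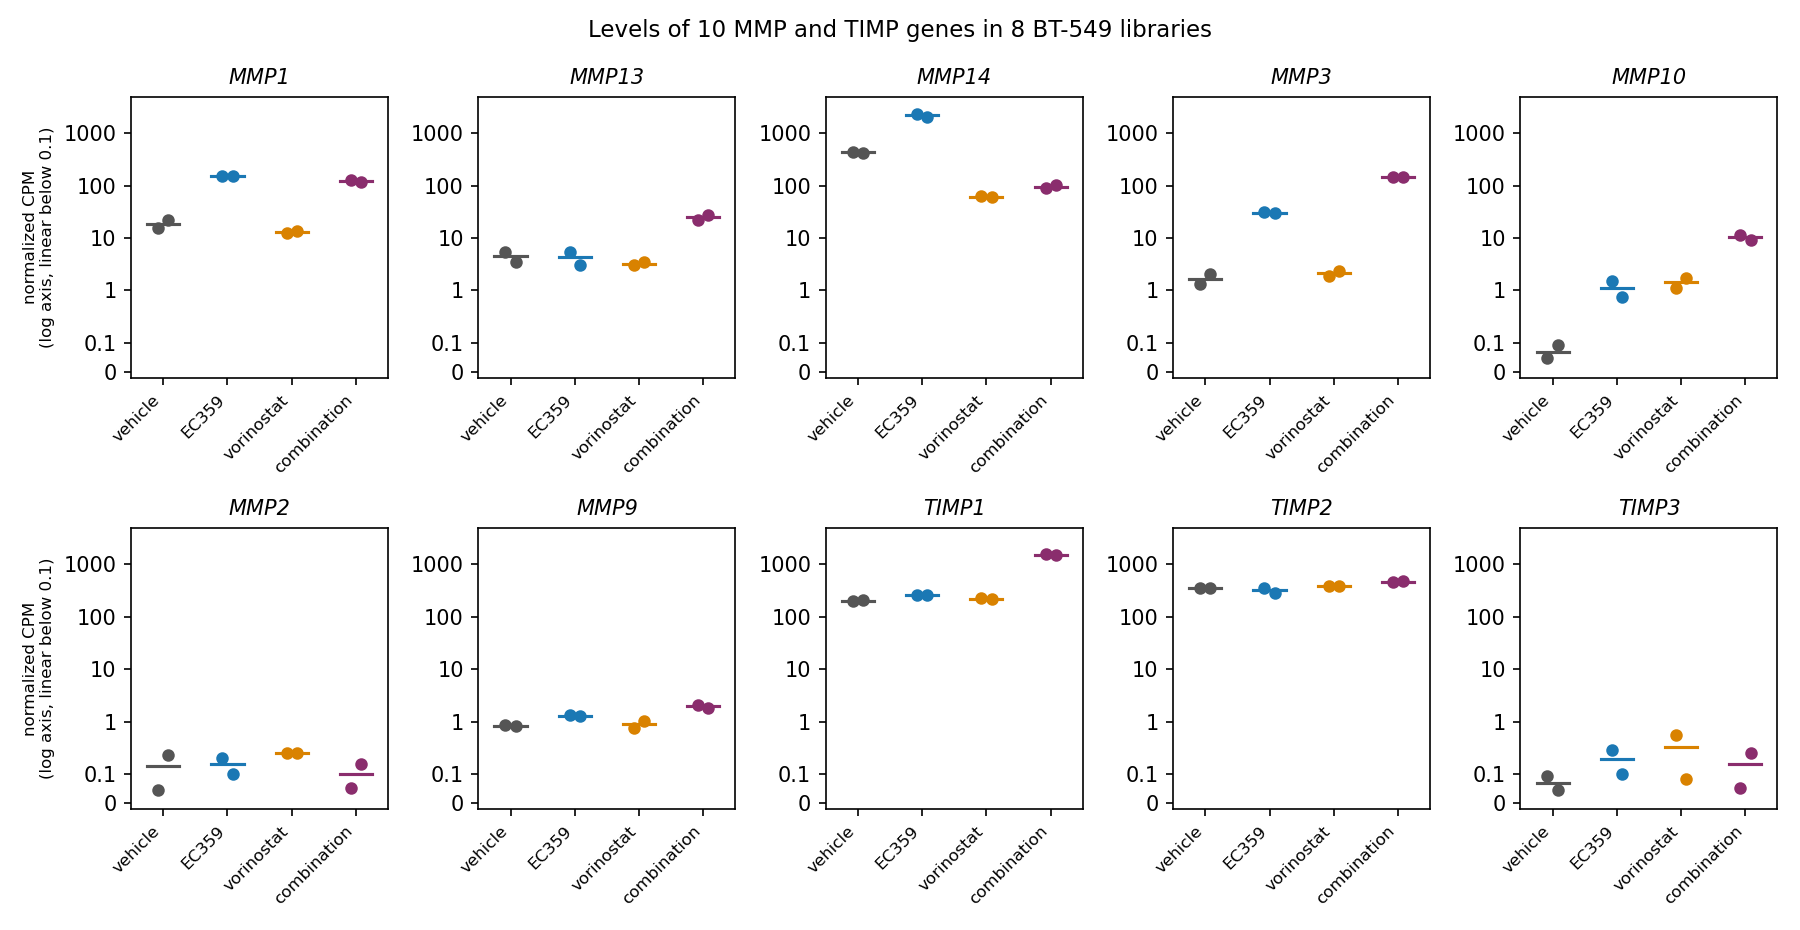
Normalized CPM of each of the 10 genes (log axis, linear below 0.1) in the 2 libraries of each group (points) with their mean (line). The combination libraries were the highest for MMP3, MMP10, MMP13, MMP9, TIMP1 and TIMP2, while MMP14 was highest with EC359 at 2318 and 2057 CPM and lowest with vorinostat.

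MMP1, the interstitial collagenase that starts the breakdown of fibrillar collagen, was high wherever EC359 had been added. Its position is chromosome 11, 102660132 to 102668891, on the minus strand of GRCh37, the build of all positions here. Its level was 15.8 and 22.0 CPM in vehicle, 154 and 155 CPM with EC359, 12.6 and 13.4 CPM with vorinostat, and 126 and 119 CPM with the combination. No neighbouring groups in the order EC359, combination, vehicle, vorinostat overlapped. Against vehicle its log2 fold change was 3.03 ± 0.15 (SE, n = 2 per group) with EC359, -0.54 ± 0.151 under vorinostat and 2.70 ± 0.148 under the combination. Against vorinostat alone, the combination gave 3.23 ± 0.153, or 9.4-fold. The difference between the EC359 steps with and without vorinostat, the interaction, was 0.20 ± 0.203 on the log2 scale and was not called. Of its 50-base words, 2.91% also occurred in WTAPP1, a pseudogene on the other strand.

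MMP13, the collagenase with a preference for type II collagen, showed another pattern and stood higher in the combination libraries than in the other 6. It is found on chromosome 11 at 102813724 to 102826461, minus strand. Its level was 5.52 and 3.46 CPM in vehicle, 5.53 and 3.09 CPM with EC359, 3.09 and 3.44 CPM with vorinostat, and 22.3 and 27.1 CPM with the combination. The vehicle libraries overlapped those of EC359, which overlapped those of vorinostat, and both combination libraries lay above them all. The log2 fold change was -0.04 ± 0.307 for EC359 against vehicle, -0.46 ± 0.316 for vorinostat against vehicle, and 2.46 ± 0.29 for the combination against vehicle. Its interaction of 2.96 ± 0.427 was the largest among the 8 genes fitted. None of its 50-base words occurred in another gene.

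MMP14, the membrane-anchored collagenase and activator of MMP2, stood higher with EC359 and lower with vorinostat. It is a gene of chromosome 14 (23305769 to 23318250, plus strand) and was the most abundant MMP of the set in vehicle. Its level was 443 and 413 CPM in vehicle, 2318 and 2057 CPM with EC359, 62.4 and 59.8 CPM with vorinostat, and 89.2 and 102 CPM with the combination. The 4 groups did not overlap, and the EC359 libraries held 56210 and 40543 reads of this gene. The log2 fold change against vehicle was 2.35 ± 0.102 with EC359, -2.81 ± 0.105 under vorinostat and -2.17 ± 0.102 under the combination. With vorinostat present, EC359 went with a log2 difference of 0.64 ± 0.1, or 1.56-fold, against 5.11-fold in its absence. The interaction was -1.71 ± 0.14, the lowest among the 8 genes fitted. From EC359 alone to the combination the level was 22.9-fold lower.

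MMP3, stromelysin-1, cuts proteoglycans and other matrix proteins and activates other MMP precursors. It lies on chromosome 11 at 102706532 to 102714340, minus strand. Its level was 1.32 and 2.06 CPM in vehicle, 30.9 and 29.6 CPM with EC359, 1.90 and 2.34 CPM with vorinostat, and 146 and 145 CPM with the combination. Vehicle and vorinostat overlapped, EC359 lay above both, and the combination lay above EC359. The log2 fold change was 4.16 ± 0.179 for EC359 against vehicle, 0.34 ± 0.225 for vorinostat against vehicle, and 6.42 ± 0.182, or 85.9-fold, for the combination against vehicle. Adding EC359 to vorinostat gave 6.09 ± 0.177, and the interaction was 1.93 ± 0.265. MMP3 thus went from the fourth rank among the 7 MMPs in vehicle, by CPM per kilobase of transcript, to the top rank with the combination.

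MMP10, stromelysin-2, is close to MMP3 in sequence and also activates other MMP precursors. It lies on chromosome 11 at 102641233 to 102651359, minus strand. MMP3 and MMP10 shared 59 words of 50 bases, which is 3.33% of the words of MMP3 and 3.45% of those of MMP10. How reads that match both genes were counted is not given in the sources used here. The counts of MMP10 were 1 and 2 in vehicle, 36 and 15 with EC359, 22 and 41 with vorinostat, and 228 and 177 with the combination. EC359 and vorinostat overlapped, both lay above vehicle, and the combination lay above all others. In CPM the group means were 0.0703 in vehicle, 1.12 with EC359, 1.44 under vorinostat and 10.4 under the combination. With so few vehicle counts, ratios of summed counts are given with their exact 95% intervals, which cover counting error only: against vehicle 16.5 (5.33 to 82.5) with EC359, 20.8 (6.81 to 104) with vorinostat, and 147 (49.9 to 716) under the combination. The combination stood at a log2 fold change of 2.83 ± 0.337 against vorinostat and 3.17 ± 0.346 against EC359. For vorinostat against vehicle MMP10 had the largest log2 fold change of the 8 genes, 4.255 ± 0.643, which rests on 3 vehicle counts. The interaction of MMP10, which rests on 3 vehicle counts, was not called.

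MMP9 and MMP2 are the gelatinases, which cut denatured collagen and the type IV collagen of basement membranes. MMP9 lies on chromosome 20 at 44637547 to 44645200, plus strand. Its counts were 18 and 18 in vehicle, 32 and 25 with EC359, 15 and 24 with vorinostat, and 41 and 36 with the combination. The combination libraries were the highest, and the log2 fold change of 1.21 ± 0.354 against vehicle was not called. Of the 50-base words of MMP9, 11.1% also lie in SLC12A5-AS1, an antisense gene that overlaps 430 bases of its exons. Whether reads were counted by strand is not given in the sources used here, so those from the gene and its antisense partner cannot be told apart. MMP2, on chromosome 16 at 55423612 to 55540603, had 1 to 6 counts per library, and in CPM its groups overlapped except for vorinostat, with 5 and 6 counts. At this depth, where 3 counts correspond to 0.121 to 0.157 CPM, no difference in MMP2 was detectable.

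TIMP1, a secreted inhibitor that blocks most soluble MMPs and is weak against MMP14, was several-fold more abundant in the combination libraries than in any other. It is encoded on chromosome X at 47441807 to 47446188, plus strand. Its level was 197 and 212 CPM in vehicle, 262 and 262 CPM with EC359, 226 and 220 CPM with vorinostat, and 1572 and 1507 CPM with the combination. The groups did not overlap, although vehicle and vorinostat lay close. The log2 fold change against vehicle was 0.36 ± 0.0788 with EC359, 0.12 ± 0.0788 with vorinostat and 2.91 ± 0.0841, or 7.53-fold, with the combination. The interaction was 2.43 ± 0.113. TIMP1 and MMP13 thus both stood much higher with the combination than with either drug alone, at levels that differ widely.

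TIMP2, which inhibits MMP14 and also bridges it to the precursor of MMP2, stood within 1.33-fold of vehicle in the mean of each group. Its gene spans 76849059 to 76921469 of chromosome 17, minus strand. Its level was 360 and 348 CPM in vehicle, 358 and 287 CPM with EC359, 388 and 380 CPM with vorinostat, and 457 and 481 CPM with the combination. Vehicle and EC359 overlapped, and the other groups did not. The log2 fold change against vehicle was -0.13 ± 0.108 with EC359, 0.12 ± 0.108 under vorinostat and 0.41 ± 0.108 under the combination, and no comparison was called. Of its 50-base words, 8.83% also lie in an antisense gene that overlaps 367 bases of its exons. TIMP3, on chromosome 22 at 33197691 to 33259028, binds to the matrix and also inhibits ADAM and ADAMTS proteases. It had 2 and 1 counts in vehicle, 7 and 2 with EC359, 11 and 2 with vorinostat, and 1 and 5 with the combination. In CPM the vehicle libraries lay below those of EC359, and those of vorinostat and of the combination overlapped both. The ratio of summed counts, with an exact 95% interval for counting error, was 4.3 (1.18 to 23.5) for vorinostat against vehicle, where 1 library held 11 of the 13 counts.

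**Figure D2:**
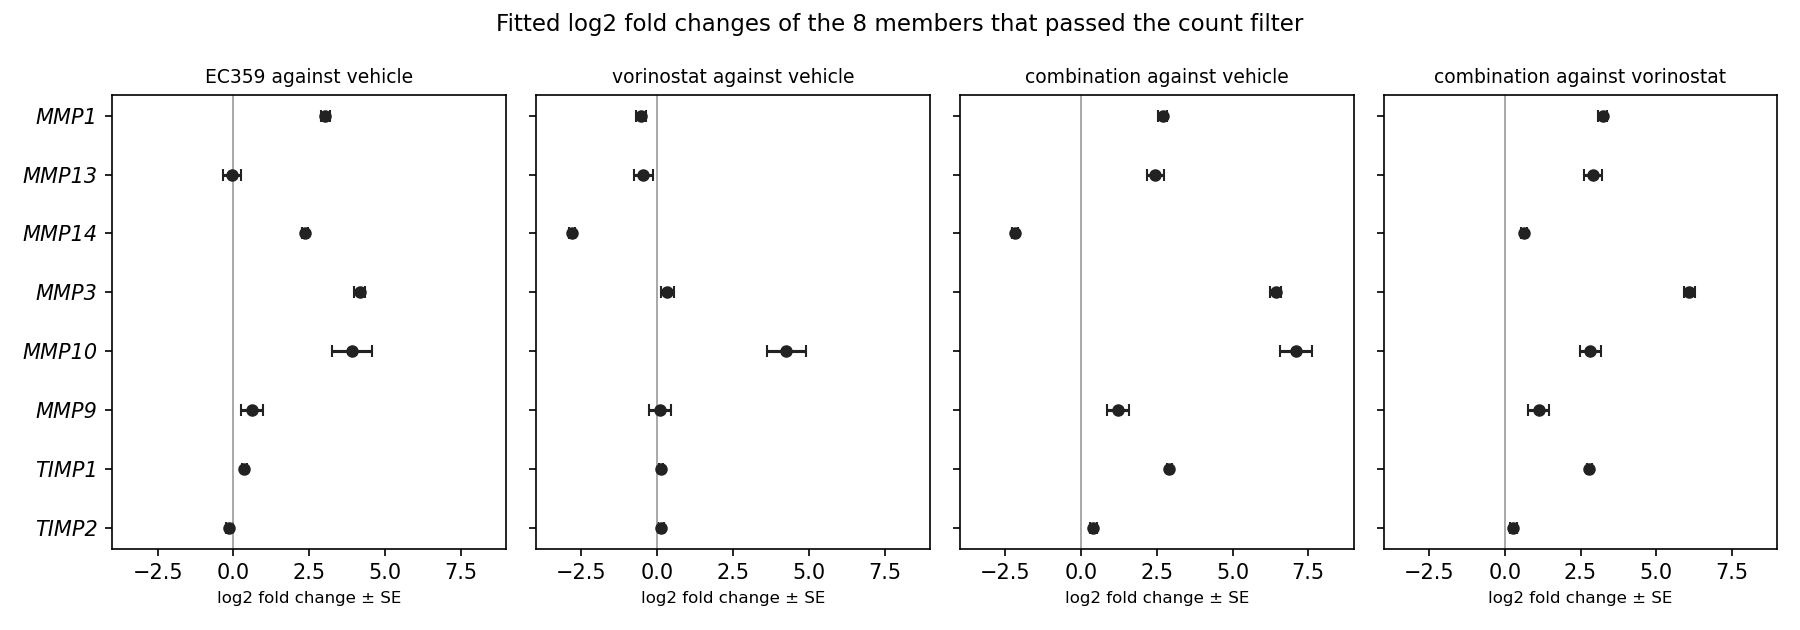
Fitted log2 fold change ± SE of the 8 genes that passed the count filter, in 4 comparisons of 2 libraries against 2. MMP14 lies at 2.35 with EC359 and at -2.81 with vorinostat, and MMP3 at 6.09 for the combination against vorinostat. The 3 comparisons against vehicle share its libraries, and the MMP10 values against vehicle rest on 3 vehicle counts.

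Counted over the set, 4 of the 8 fitted genes were called higher and 0 lower for EC359 against vehicle, where 1.94% of all tested genes were called higher and 1.72% lower. They were MMP1, MMP3, MMP10 and MMP14. For vorinostat against vehicle 1 was higher (MMP10) and 1 lower (MMP14), beside 16.8% and 13.3% of all tested genes. For the combination against vehicle 5 were higher (MMP1, MMP3, MMP10, MMP13 and TIMP1) and 1 lower (MMP14), beside 19.5% and 15.3%. For the combination against vorinostat the same 5 were higher and 0 lower, beside 3.37% and 0.876%. For the combination against EC359 MMP3, MMP10, MMP13 and TIMP1 were higher and MMP14 lower, beside 19.8% and 13.9%. The interaction was called above 0 for MMP3, MMP13 and TIMP1 and below 0 for MMP14, beside 1.62% and 0.482% of all tested genes. Against vehicle, the median log2 fold change of the 8 genes was 1.48 with EC359, 0.106 with vorinostat and 2.58 under both drugs, where the medians of all tested genes were -0.0222, 0.0299 and 0.0677. MMP10, with 1 and 2 vehicle counts, passed the filter only through the other groups. The genes were chosen with their levels known, so these counts describe the selection.

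The interaction calls of MMP3 and MMP13 were lost without vehicle replicate 2 and without either vorinostat or either combination library, and that of MMP13 also without vehicle replicate 1. Over the 15 alternatives the interaction itself ran from 1.57 to 2.21 for MMP3 and from 2.58 to 3.44 for MMP13. It ran from -1.87 to -1.62 for MMP14 and from 2.34 to 2.47 for TIMP1. The genes were chosen with their levels known, so a call kept or lost is a description and not support. The EC359 call of MMP10 was absent without either vehicle or either combination library and when only the groups compared were fitted, and its call for the combination against vorinostat without replicate 1 of either group. The combination libraries differ in summed epithelial markers, at 2.56 and 21.5 CPM. Leaving out either of them cannot show whether another cell population contributed to the levels of these genes, since they were chosen for those levels. Such a contribution was not tested.

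Dividing CPM by the length of the canonical transcript in kilobases (kb) allows levels of different genes to be compared within a library. Summed over the 7 MMPs, the level was 131 and 126 CPM per kb in vehicle, 725 and 653 with EC359, 26.5 and 27.0 with vorinostat, and 184 and 183 with the combination. Most of the sum was MMP14 in vehicle (120 and 112 CPM per kb), with EC359 (626 and 556) and with vorinostat (16.9 and 16.2). With the combination MMP14 made up 24.1 and 27.5 CPM per kb, MMP3 80.4 and 79.5, and MMP1 63.8 and 60.3. Membrane-linked MMPs outside these 7 are not in this sum. Their mean levels with vorinostat and with the combination were 27.1 and 18.0 CPM per kb for MMP15, 10.99 and 9.66 for MMP16, and 6.55 and 6.51 for MMP17. Without MMP14 the sum of the other 6 was 11.2 and 14.0 CPM per kb in vehicle, 98.5 and 96.9 with EC359, 9.62 and 10.9 with vorinostat, and 160 and 156 with the combination. The sum over the 3 TIMPs was 355 and 371 CPM per kb in vehicle, 440 and 420 with EC359, 400 and 390 with vorinostat, and 2170 and 2092 with the combination. TIMP mRNA exceeded MMP mRNA per kb in all libraries but those of EC359.

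The ratio of MMP14 to TIMP2, per kb within a library, was 1.22 and 1.17 in vehicle, 6.39 and 7.06 with EC359, 0.159 and 0.155 with vorinostat, and 0.193 and 0.209 with the combination. No groups overlapped in this ratio. The ratio of MMP1 to TIMP1 was 0.0312 and 0.0405 in vehicle, 0.229 and 0.230 with EC359, 0.0218 and 0.0238 with vorinostat, and 0.0312 and 0.0308 with the combination. For this ratio only the EC359 libraries stood above vehicle, since MMP1 and TIMP1 were both higher with the combination. The ratio of MMP3 to TIMP1 was 0.00283 and 0.00409 in vehicle, 0.0497 and 0.0477 with EC359, 0.00356 and 0.00449 with vorinostat, and 0.0393 and 0.0406 with the combination. These are ratios of mRNA per kb and not of protein.

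**Figure D3:**
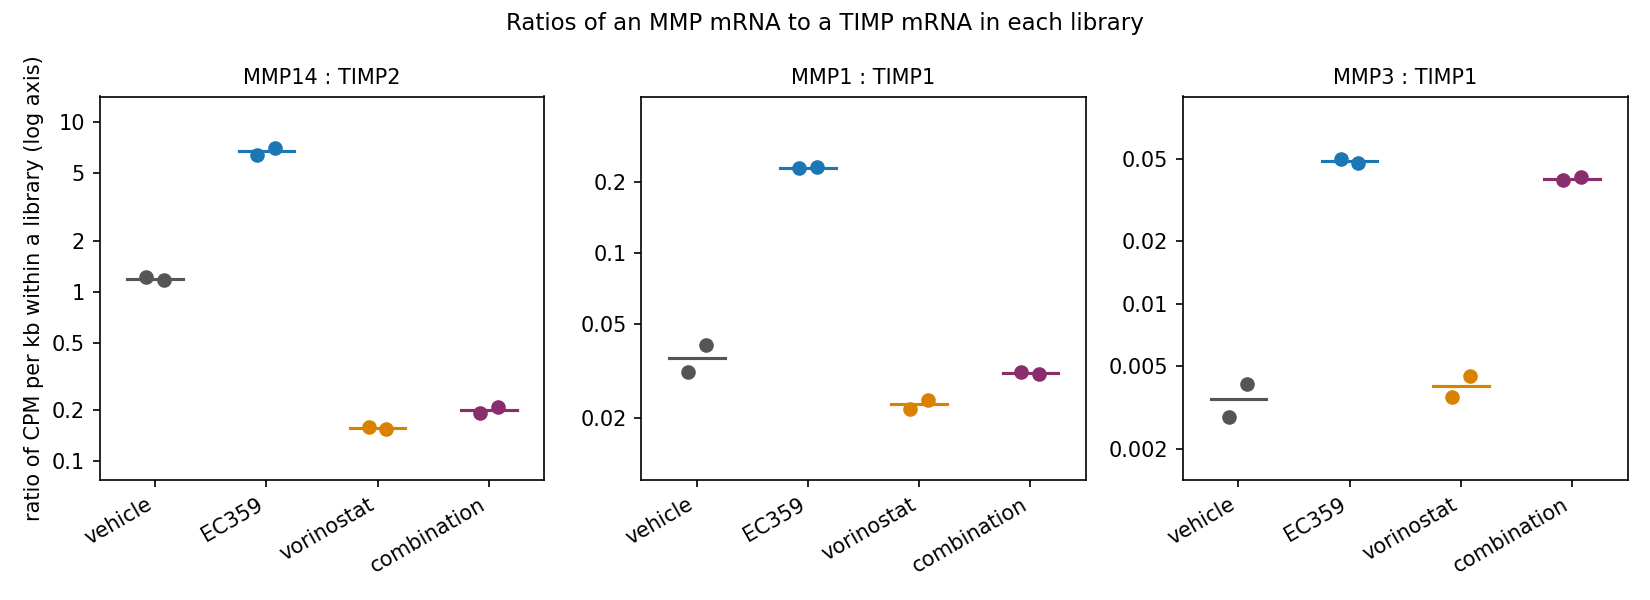
Ratios of CPM per kb between an MMP and a TIMP in each library (points, log axis) with the group mean of 2 libraries (line). The MMP14 to TIMP2 ratio is 6.39 and 7.06 with EC359 and at most 0.209 with vorinostat or the combination, while the MMP1 to TIMP1 ratio of the combination lies at the lower end of vehicle.

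MMP1, MMP3, MMP10 and MMP13 lie in the MMP cluster of chromosome 11, where 9 genes of the lists used here span 435.2 kb, all on the minus strand. In order of increasing coordinate these are MMP7, MMP20, MMP27, MMP8, MMP10, MMP1, MMP3, MMP12 and MMP13. The 5 other genes stayed below 1 CPM in the mean of each group. MMP20 and MMP27 had 0 counts in all 8 libraries, and MMP7 had 0 or 1 count. In 1 library alone, 0 counts set an upper limit of about 3 expected counts at 95% confidence, for counting error only. MMP8, a neutrophil collagenase, had 0 to 16 counts per library and MMP12, a macrophage elastase, 0 to 11. The mean level of MMP12 was 0.332 CPM with the combination and at most 0.0703 CPM in the other groups. A mean over 1 CPM in at least 1 group was thus found for 4 of the 9 neighbours. These are the genes of the chosen set, which were taken with their levels known, so this contrast describes the selection. MMP8 and MMP12 lie between or beside them and stood at much lower levels.

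**Figure D4:**
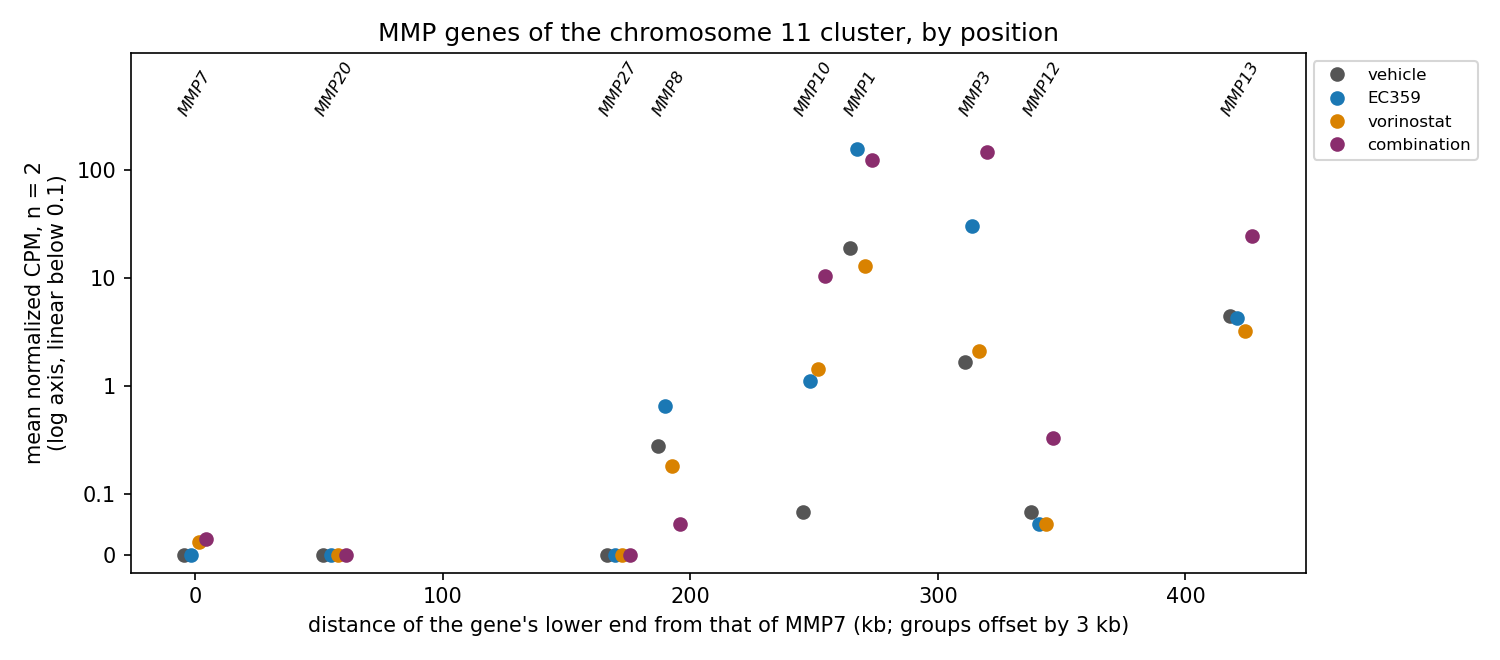
Mean normalized CPM (log axis, linear below 0.1, n = 2) of 9 MMP genes of the chromosome 11 cluster against the distance in kb from MMP7. MMP10, MMP1, MMP3 and MMP13, the genes of the chosen set, are those with over 1 CPM in at least 1 group. Each of MMP3, MMP10 and MMP13 is highest with the combination.

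The other MMP genes and TIMP4 were compared as a list of 18, of which 7 passed the filter. With vorinostat 4 of 7 rose and 0 fell, beside 16.8% and 13.3% of all tested genes, by edgeR's test with Benjamini-Hochberg adjustment over all tested genes. With the combination 3 of 7 rose and 0 fell, beside 19.5% and 15.3%. MMP24, a membrane-anchored MMP, had means of 0.375 CPM in vehicle, 3.67 with vorinostat and 6.13 with the combination. Its log2 fold change for the combination against vehicle was 4.01 ± 0.416. It had 16 counts in all in vehicle and 14 with EC359, and passed the filter through the groups in which it stood high. Its difference is therefore given without p, although it is counted among the risers above. MMP15, the membrane-anchored MMP closest to MMP14, rose from 30.2 to 110 CPM with vorinostat (1.86 ± 0.116, edgeR adjusted p 1.8e-06), while MMP14 stood lower there. MMP17, linked to the membrane by a lipid anchor, rose from 3.73 to 15.8 CPM with vorinostat (2.08 ± 0.179, edgeR adjusted p 1e-05).

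MMP11, stromelysin-3, rose with vorinostat (1.29 ± 0.281, edgeR adjusted p 0.0029) and fell with EC359 by 1.75 ± 0.348 (edgeR adjusted p 0.0095). Both MMP11 calls were lost in several alternatives: the EC359 call when any of 7 libraries was left out, and the vorinostat call when any of the 4 vehicle or vorinostat libraries was. MMP16, a membrane-anchored MMP, stood at 170, 198, 127 and 112 CPM in vehicle, EC359, vorinostat and the combination. Its log2 fold change was -0.42 ± 0.0805 with vorinostat (edgeR adjusted p 0.0015) and -0.60 ± 0.0808 with the combination (edgeR adjusted p 0.00014), both short of the fold threshold and so not called. MMP8 and MMP25 had group means of at most 1.01 CPM and were not called. For the combination against vorinostat 0 of the 7 genes were called, beside 3.37% of all tested genes higher and 0.876% lower.

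ADAM and ADAMTS proteases, a related family of metalloproteinases, numbered 28, of which 21 passed the filter. Under EC359 2 rose and 1 fell, beside 1.94% and 1.72% of all tested genes. Under vorinostat 3 rose and 7 fell, beside 16.8% and 13.3%, and under the combination 4 rose and 7 fell, beside 19.5% and 15.3%, so that the risers were near the share of all genes. ADAM19, a membrane-anchored sheddase, rose from 26.9 CPM in vehicle to 141 CPM with EC359 (2.39 ± 0.11, edgeR adjusted p 3e-06). Its levels with vorinostat and the combination were 25.4 and 21.2 CPM, neither of them called against vehicle. ADAMTS15, which cuts the proteoglycan versican, fell with EC359 by 2.83 ± 0.163 (edgeR adjusted p 9.1e-06), from 87.1 to 12.3 CPM. ADAMTS5, an aggrecan-cutting enzyme, fell with vorinostat by 2.67 ± 0.172 (edgeR adjusted p 2.1e-06), and ADAMTS10 fell there by 2.97 ± 0.172 (edgeR adjusted p 1.2e-06). ADAMTS16 fell with vorinostat by 1.36 ± 0.176 (edgeR adjusted p 0.00013) and stood at 17.1 CPM with the combination against 11.7 in vehicle.

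Of 13 genes listed as regulators of MMP activation or of MMPs at the cell surface, 9 passed the filter. The list is not limited to activators, since it also holds genes that inhibit or clear MMPs. With EC359 1 rose and 0 fell, beside 1.94% and 1.72% of all tested genes. Under vorinostat and under the combination 3 rose and 1 fell, beside 16.8% and 13.3% for the former and 19.5% and 15.3% for the latter, and a single faller of 9 is near these shares. The riser with EC359 was PLAU, which encodes urokinase, the protease that makes plasmin and so starts MMP activation. Its mean level was 58.9 CPM in vehicle, 238 with EC359, 27.5 under vorinostat and 23.9 under the combination. PLAU thus rose with EC359 (2.02 ± 0.106, edgeR adjusted p 6e-06) and fell with vorinostat by 1.10 ± 0.107 (edgeR adjusted p 2.3e-05), the directions in which MMP14 stood. PLAT, the tissue-type plasminogen activator, had means of 0.211 CPM in vehicle, 4.28 with vorinostat and 4.6 with the combination (4.41 ± 0.346). With 9 counts in all in vehicle it passed the filter through the other groups, so its difference is given without p. LRP1, an endocytic receptor that clears MMPs and TIMP1, rose from 92.6 to 223 CPM with vorinostat (1.27 ± 0.119, edgeR adjusted p 1.8e-05). Its call for the combination, at 1.01 ± 0.119, lay just past the fold threshold and was lost under RLE or total-count scaling and in DESeq2. CD44, a hyaluronan receptor that holds MMPs at the surface, was the only called gene of the list for the combination against vorinostat (1.42 ± 0.123, edgeR adjusted p 8.4e-05).

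All 17 transcription factors listed for MMP promoters passed the filter. Under EC359 4 rose and 0 fell, beside 1.94% and 1.72% of all tested genes. Under vorinostat 5 rose and 3 fell, beside 16.8% and 13.3%, and under the combination 8 rose and 2 fell, beside 19.5% and 15.3%, so that the fallers were near the share of all genes. For the combination against vorinostat 8 of 17 rose and 0 fell, beside 3.37% and 0.876% of all tested genes. As with the other lists, these genes were chosen with earlier results of these data known. FOS stood at 11.2 CPM in vehicle, 7.65 with EC359, 102 under vorinostat and 240 under the combination (4.42 ± 0.137 against vehicle, edgeR adjusted p 4.2e-08). FOSB rose from 2.61 CPM in vehicle to 49.4 CPM with the combination (4.24 ± 0.255, edgeR adjusted p 9.8e-07), and its difference from vorinostat alone was 2.49 ± 0.225 (edgeR adjusted p 0.00011). FOSL1 stood at 97.4, 428, 6.71 and 117 CPM in the order vehicle, EC359, vorinostat and combination, and it fell with vorinostat by 3.86 ± 0.302 (edgeR adjusted p 6e-06). The EC359 mean of FOSL1 had an SD of 174 CPM. NFKB1 fell with vorinostat by 3.57 ± 0.235 (edgeR adjusted p 2.2e-06). FOSL1 was also called for EC359 against vehicle, a call lost without vehicle replicate 2 and when only the groups compared were fitted.

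The ETS factors ETV1, ETV4 and ETV5 are named after their values were seen. Each rose with EC359, and ETV5 went from 15.0 CPM in vehicle to 106 with EC359, 15.3 under vorinostat and 122 under the combination (2.82 ± 0.101 for EC359, edgeR adjusted p 1.2e-06). ETV4 stood at 8.45, 50.3, 8.26 and 27.4 CPM in the same order, and ETV1 at 2.7, 19.3, 8.31 and 25.9 CPM. Whether any of these factors acts on the 10 genes was not tested.

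**Figure D5:**
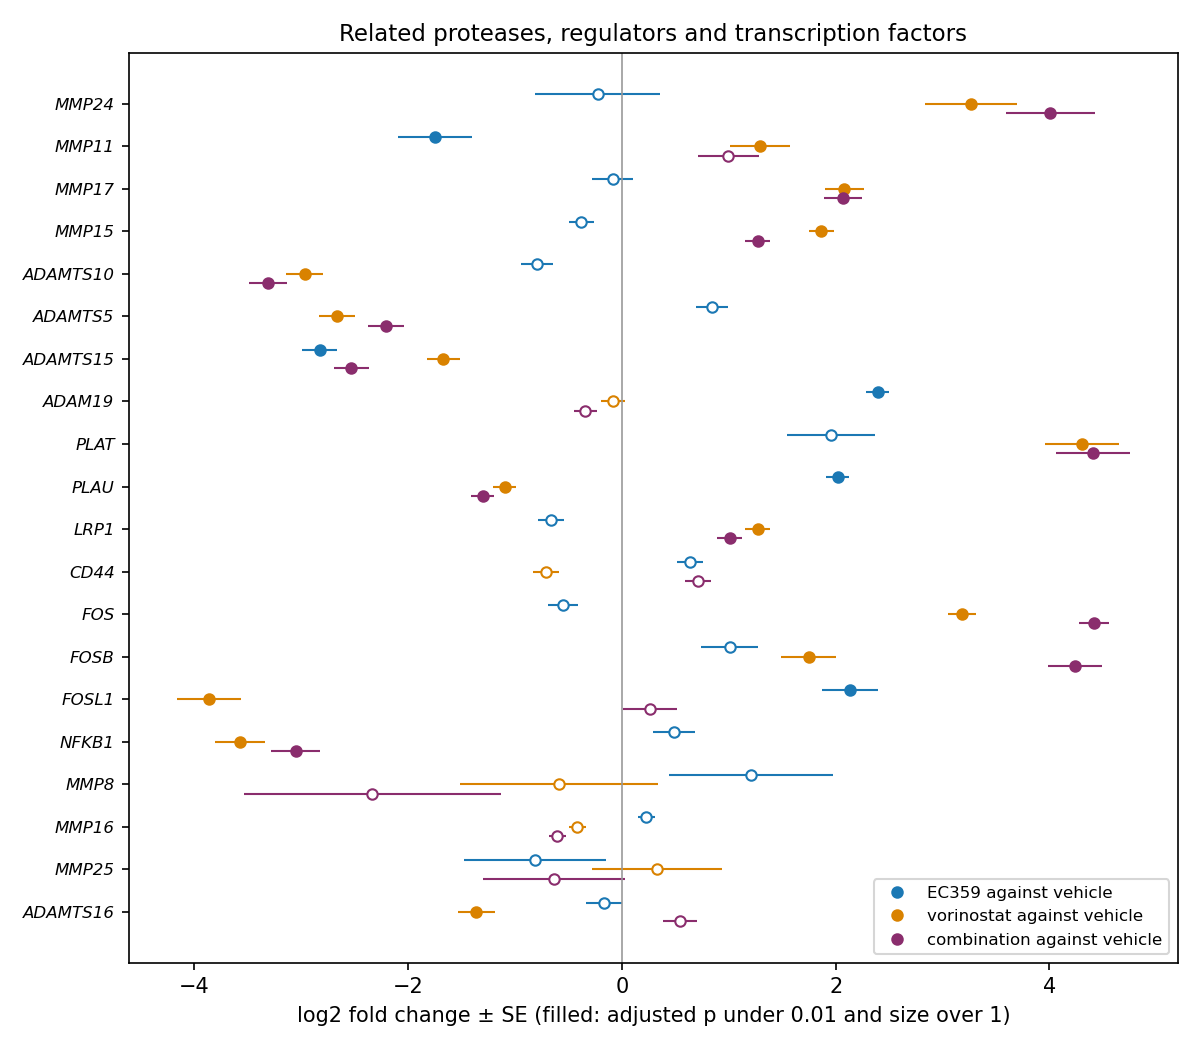
Log2 fold change ± SE against vehicle for the related genes named by the rule, with filled points where edgeR's adjusted p was under 0.01 and the absolute log2 fold change over 1. MMP15, MMP17 and MMP24 are filled to the right for vorinostat, ADAM19 and PLAU for EC359, and FOS and FOSB for vorinostat and the combination.

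For each of the 8 fitted genes the 3 genes with the most alike pattern were found by Euclidean distance over the 8 libraries, on log2 CPM centred on the vehicle mean. For MMP1 these were HAS3, ETV5 and XDH (distances 1.00, 1.02 and 1.43). ETV5 is also on the list of transcription factors above. For MMP3 they were DUSP6, IL8 and PTGS2 (1.71, 2.63 and 2.70), for MMP10 STC1, CXCL3 and AKR1C1 (0.955, 1.53 and 1.59), and for MMP13 LOC100133331, FGFBP1 and ZFHX2 (1.26, 1.29 and 1.34). The nearest to MMP14 were SYNDIG1, MYH15 and PSG7 (1.16, 1.29 and 1.37), and those to TIMP1 were PLIN2, DDIT3 and BTBD19 (0.410, 0.698 and 0.717). DDIT3, a stress-response transcription factor, stood at 0.479, 0.532 and 2.67 above its vehicle mean on the log2 scale (EC359, vorinostat, combination). TIMP2 and MMP9, which differed least between groups, had the smallest distances to their neighbours, down to 0.173 for TFDP2 and 0.311 for FAM63B. None of the 8 fitted genes was among the 3 nearest to another, and MMP2 and TIMP3 were not part of this search.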

How the data were processed

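Total RNA of BT-549 cells was sequenced as 50 bp single-end reads. Per the labels and the study's methods, the authors aligned reads to hg19 with TopHat2 (2.0.8b) and used HTSeq for counting on RefSeq genes. These raw read counts, per gene symbol and library, are what the authors deposited. The 5 summary lines per library were left out; 85.1 to 88.1% of unique alignments fell on genes, and 19069450 to 24759041 counts set the precision. Intervals and floors of 3 counts cover counting error only.

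Genes were kept by filterByExpr, scaled by TMM and fitted with 1 mean per group over all 8 libraries with edgeR 4.0.16 (R 4.3.3), and p-values were adjusted by Benjamini-Hochberg over 13694 genes. The SE is the log2 fold change over the square root of F. The members and lists were chosen with earlier results of these data known. All members were named, and of each other list up to 4 called genes with the largest fold, without overlap and with an average log2 CPM of at least 0, each tested MMP and each called interaction. Positions and lengths came from GENCODE on GRCh37, promoters from RefSeq. The procedure was run on simulated data with 1 spread shared by all genes and groups. That run checks the code and not the p-values of these data. Alternatives were RLE and total-count scaling, other filters and thresholds, DESeq2 1.42.0, fits on the groups compared, a replicate block and leaving out each library. Figures were drawn with matplotlib 3.10.9.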

Additional observations from a re-analysis of the deposited data

Results flagged for a closer look

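The interaction on the log2 scale was called by edgeR's test for 5 of the 54 tested genes of the 4 related lists. In these the EC359 difference depended on vorinostat. The interaction was above 0 for 3 and below 0 for 2, beside 1.62% and 0.482% of all tested genes. The lists were drawn up with earlier results of these data known, so these calls are descriptions and not independent support. ADAM19 had an interaction of -2.65 ± 0.154 (edgeR adjusted p 7e-05), and PLAU one of -2.22 ± 0.151 (edgeR adjusted p 0.00012). Both stood high with EC359 alone and not with the combination. ADAMTS15 had an interaction of 1.97 ± 0.224 (edgeR adjusted p 0.0016), ADAMTS16 one of 2.07 ± 0.24 (edgeR adjusted p 0.0017), and FOS one of 1.79 ± 0.181 (edgeR adjusted p 0.00083). The ADAMTS15 call was lost without any of 6 libraries, the ADAMTS16 call without any of 5, and the FOS call without any of 3, each at adjusted p of at most 0.027, and the calls of ADAM19 and PLAU were not lost.

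MMP13 stood lower with vorinostat than with vehicle in all pairs of libraries (log2 fold change -0.46 ± 0.316), and higher with the combination than with EC359 in all pairs (2.50 ± 0.29). The closest vorinostat and vehicle libraries were almost level, at 3.444 and 3.457 CPM, so the first of these differences is slight. As a gene of the chosen set its difference was not tested.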

How the results depend on the processing

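Members called without 1 library numbered 3 to 4, 2, 6, 4 to 5, 5 and 2 to 5 for EC359, vorinostat and the combination against vehicle, the combination against vorinostat and against EC359, and the interaction (all libraries: 4, 2, 6, 5, 5 and 4). In the same order related genes numbered 7 to 11, 23 to 26, 25 to 28, 10 to 12, 21 to 26 and 2 to 14 (9, 26, 28, 12, 24 and 5), and all genes 298 to 924, 3494 to 4369, 4091 to 4995, 285 to 730, 4146 to 4823 and 56 to 1437 (502, 4123, 4763, 582, 4620 and 288). The interaction count was 1420 and 1437 without EC359 replicate 1 or 2. With a library left out, its partner is assumed to vary like the other groups. The EC359 libraries differed most from each other. The SD of the log2 difference within a group was 0.563 for EC359, against 0.349 for vehicle, 0.312 for vorinostat and 0.448 for the combination. The fit shared 1 spread among all groups, so p-values that involve EC359 do not carry its wider spread in full. With no fold threshold all genes numbered 1071, 7130, 7718, 1877 and 7642, and related genes 17 (EC359) and 20 (combination against vorinostat). Fitting only vehicle and EC359 gave 233 for EC359. For the interaction, DESeq2 called 714 genes and 11 related ones, an adjusted p under 0.05 gave 925 and 11, and no filter gave 8 related ones. Total-count scaling split the combination against vorinostat into 380 higher and 182 lower (462 and 120 by TMM), with a median shift of -0.0961, and the interaction into 188 and 86, and DESeq2 into 447 and 267 (222 and 66). No called value changed sign in any alternative run. Of the members' log2 fold changes under the alternatives, 670 moved by less than the spread between libraries and 90 by more. For the other genes named, 40 calls were lost, 19 were gained and 1837 values stayed called or stayed uncalled. MMP1 (interaction), MMP13 and TIMP2 (EC359) and MMP9 (vorinostat) changed sign without being called. Uncalled values of the other genes named also changed sign. Examples are the interaction of NFKB1, in 9 of 15 alternatives, and that of MMP17, in 4 of 15.

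The labels link same-numbered libraries only by their number, and whether they share more is not known. The correlations of their deviations between groups ran from -0.173 to 0.231. A replicate block gave 189 interaction calls, all members' calls were as without it, and of the calls of other genes named, that of MMP11 for EC359 was lost (edgeR adjusted p 0.01) and no other. A crossed block, with the combination numbers exchanged and added after seeing the data, gave 477 interaction calls and 8 among related genes. The causes of these differences were not tested.

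Depth left MMP2 and TIMP3 without a fit and MMP10 with 3 vehicle counts. With 2 libraries per group the spread was borrowed across genes.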
